A study of Mus musculus with 20 samples.

Results

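This account covers the comparison of untreated primary midbrain neuron cultures on day 5 in vitro (DIV5) with untreated cultures on day 1 in vitro (DIV1), the part of the series that follows the cells as they age in the dish. The members are the 5 libraries labelled day 5 and the 5 labelled day 1 grown without GDNF, a growth factor that supports dopaminergic neurons, 10 of the 20 libraries in all. The other 10 libraries come from cultures given GDNF at 10 ng/ml. They enter here through the choice of tested miRNAs, the scaling and the shared estimate of the spread. They also give a second look at the same days. Every culture was made from the ventral mesencephalon of C57Bl6/J mouse embryos of embryonic day 12.5, with the meninges removed, and was kept without serum in Neurobasal-A with B27 supplement on poly-L-ornithine and laminin. Small RNA was sequenced from total RNA, and reads were counted per mature miRNA. The labels do not say whether the 5 replicates of a group are separate cultures or animals, so the p-values here reflect the spread among libraries, which may be technical. The dissection takes the whole ventral midbrain, so dopaminergic neurons are measured together with other neurons and with any precursors or other cells present.

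MicroRNAs are cut from a hairpin precursor, whose left (5p) and right (3p) arm can each be loaded into an Argonaute protein. The loaded arm finds messenger RNAs mainly through its seed, bases 2 to 8, so arms with a shared seed are grouped as a family. In the developing brain, the miR-17-92 cluster and its paralogs are known from dividing precursors, miR-9 and miR-92b from neural progenitors and young neurons, and miR-124, miR-128, miR-129 and miR-137 from differentiated neurons, while miR-132 and miR-212 are induced by neuronal activity through the factor CREB.

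The mature sequences below are those on which the results turn, from the RefSeq annotation of GRCm38.p6, with the seed in capitals. The first set shares the seed AUUGCAC or AAAGUGC and comes mostly from the miR-17-92 cluster and its paralogs, which fell between the 2 days.
miR-92a-3p: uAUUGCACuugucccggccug
miR-92b-3p: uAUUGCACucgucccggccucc
miR-25-3p: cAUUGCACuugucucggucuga
miR-363-3p: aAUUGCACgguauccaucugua
miR-32-5p: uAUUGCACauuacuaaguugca
miR-17-5p: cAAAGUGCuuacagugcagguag
miR-20a-5p: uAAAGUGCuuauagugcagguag
miR-20b-5p: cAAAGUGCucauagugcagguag
miR-106a-5p: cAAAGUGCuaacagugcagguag
miR-93-5p: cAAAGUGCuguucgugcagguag
The second set holds the arms of the miR-183 cluster with the largest counts, which also fell.
miR-182-5p: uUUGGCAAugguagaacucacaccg
miR-183-5p: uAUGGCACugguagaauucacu
miR-96-5p: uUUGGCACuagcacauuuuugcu
The third set holds arms that rose, of which miR-132-3p and miR-212-3p share a seed.
miR-129-2-3p: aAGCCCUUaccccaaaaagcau
miR-128-3p: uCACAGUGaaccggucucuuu
miR-153-3p: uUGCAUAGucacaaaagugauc
miR-1298-3p: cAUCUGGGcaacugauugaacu
miR-448-3p: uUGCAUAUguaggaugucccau
miR-132-3p: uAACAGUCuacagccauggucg
miR-212-3p: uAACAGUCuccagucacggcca
The fourth set is shown because its values at DIV5 lay far apart between libraries, and miR-7a-5p and miR-7b-5p share a seed.
miR-7a-5p: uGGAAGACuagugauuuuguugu
miR-7b-5p: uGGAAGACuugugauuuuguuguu
miR-24-3p: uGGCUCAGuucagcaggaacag
miR-137-3p: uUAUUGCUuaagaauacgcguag
miR-494-3p: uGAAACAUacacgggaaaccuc
The last pair shares the seed ACAUUCA and comes from the same clusters, and its members changed unequally.
miR-181a-5p: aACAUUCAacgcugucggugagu
miR-181b-5p: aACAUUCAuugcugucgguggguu
Other miRNAs are named below without their sequence.

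Counts summed to 686793 to 1557885 in the DIV1 libraries and to 1061619 to 4324505 in the DIV5 libraries, so that 1 read was worth 0.231 to 1.46 CPM (the count scaled to a common library total). Reads that fell on no mature miRNA made up between 18.9% and 22.6% of the reads of the DIV1 files and between 11.4% and 19.0% of those of the DIV5 files. Of 1886 listed miRNAs, 542 passed the filter on low counts and were tested, and these held at least 99.9% of the counts of each of the 10 libraries. Levels are CPM scaled with TMM factors, given in the order of libraries 1 to 5, and changes are log2 values of DIV5 over DIV1 from edgeR, called at an adjusted p below 0.05. At DIV5 the untreated libraries 1 and 5 stand apart from the rest. In a principal component analysis of all 20 libraries, the first component (54.4% of the variance) separated the days. On the second (10.2%) these libraries lay at -14.5 and -12.5, whereas the other 18 lay between -1.77 and 5.54. DIV5 library 2 lay nearest to DIV1 on the first component, at 6.01 against 13.1 to 18.8 for the rest of its group. Results are given with all 5 DIV5 libraries, and many also with libraries 1 and 5 left out, which leaves libraries 2, 3 and 4.

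Most tested miRNAs changed between the days. Of 542 tested arms 329 were called (60.7%). In the edgeR fit 170 of 542 arms were called higher at DIV5 (31.4%) and 159 were called lower (29.3%), and the median change of all 542 was 0.10. Of the calls, 107 higher and 88 lower ones were at least 2-fold, and 38 and 18 were at least 4-fold. The CPM of the 5 DIV5 libraries lay wholly above those of the 5 DIV1 libraries for 109 arms (20.1%) and wholly below them for 104 (19.2%). In bulk RNA, fewer cells of a type and less RNA per cell cannot be told apart, and this holds for every change below.

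With DIV5 libraries 1 and 5 left out, 285 of 530 tested arms were called (53.8%), 145 of them higher (27.4% of the tested) and 140 lower (26.4%). Of the 170 higher calls, 133 were made again, 33 were not called and 4 were no longer tested. Of the 159 lower calls, 127 were made again, 31 were not called and 1 was not tested. No arm was called in opposite directions by these fits. Leaving the libraries out also added 12 higher and 13 lower calls. Fewer increases reached 4-fold: the higher calls of at least 4-fold went from 38 to 15, whereas the lower ones went from 18 to 19. This drop includes arms that kept their call with a change under 4-fold.

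**Figure D1:**
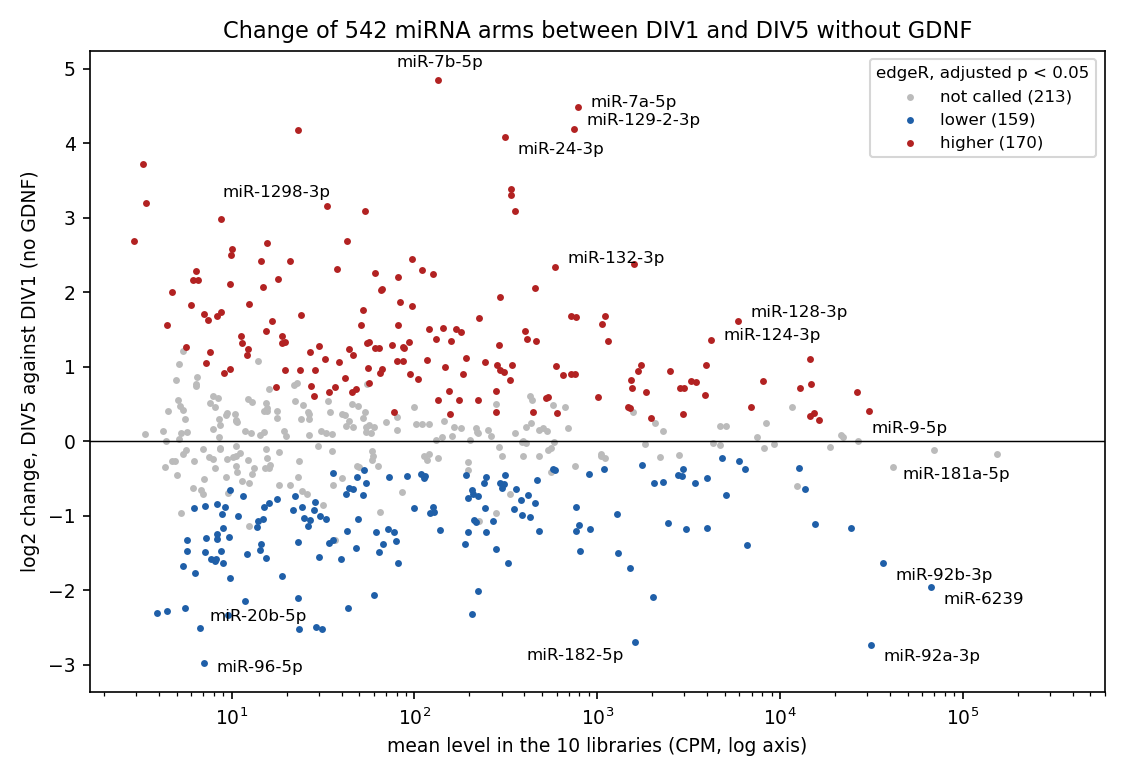
Log2 change of each of the 542 tested miRNA arms between DIV1 and DIV5 without GDNF (vertical axis) against its mean CPM in the 10 libraries (horizontal log axis). Red points are the 170 arms called higher, blue points the 159 called lower and grey points the 213 not called. miR-129-2-3p stands high at 4.19 and the abundant miR-92a-3p low at -2.73, while miR-181a-5p and miR-9-5p lie near 0.

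The miR-17-92 cluster and its paralogs fell almost as a whole. Of 23 tested arms of the 3 clusters, 22 were called lower and 0 higher, with a median change of -1.20 beside 0.10 for all tested arms. The background of lower calls was 29.3%. The lower calls numbered 21 of 23 without libraries 1 and 5. Together these arms held 7.08% ± 0.95 of the counts at DIV1 and 1.94% ± 0.18 at DIV5 (SD, n = 5 each). miR-92a-3p, the most abundant member, had 65794, 61249, 51051, 53120.1 and 42068 CPM in the DIV1 libraries and 7092, 10928, 9040.0, 7149 and 6856 CPM in the DIV5 libraries. The highest DIV5 library thus lay far below the lowest DIV1 library, and the level was 6.65-fold lower at DIV5 (log2 change -2.73, SE 0.17, adjusted p = 1.73e-10).

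On GRCm38, the Mir17 to Mir92-1 hairpins lie on chromosome 14 at 115043671 to 115044506 on the plus strand, within the noncoding host Mir17hg. All 10 tested arms with a RefSeq match at this locus were called lower. miR-19a-5p of this locus is not among the 10 and was not called. The Mir363 to Mir106a hairpins lie on chromosome X at 52741693 to 52742567 on the minus strand. All 7 of their tested arms with a RefSeq match were called lower. miR-92a-3p and miR-19b-3p can come from either locus. miR-20b-5p and miR-106a-5p, which come from the X chromosome locus alone, were among the 12 named decreases. miR-20b-5p had 60.0, 52.2, 54.5, 70.7 and 27.9 CPM at DIV1 and 10.4, 7.9, 9.49, 8.78 and 9.17 CPM at DIV5, so all 5 DIV5 values were under the DIV1 range (log2 change -2.53, SE 0.28, adjusted p = 3.04e-07). miR-106a-5p fell from 40.0 ± 10.6 to 6.78 ± 3.7 CPM (-2.53, adjusted p = 5.41e-07), and miR-17-5p and miR-20a-5p of the chromosome 14 locus changed by -1.18 and -1.20. miR-17-5p and miR-20a-5p were chosen after their values were seen.

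The Mir25 to Mir106b hairpins lie in an intron of Mcm7, a gene of the replicative helicase, on chromosome 5 at 138165321 to 138165818 on the minus strand. All 6 tested arms of this locus were called lower, and 5 were without libraries 1 and 5, where miR-106b-5p had -0.30, adjusted p = 0.102. miR-25-3p, its most abundant arm, had 9119, 10052, 9779, 10097 and 9082 CPM at DIV1 and 3474, 4696, 3826, 3218 and 3133 CPM at DIV5, with no overlap between the days (log2 change -1.39, SE 0.13, adjusted p = 2.87e-08). The star arm miR-92a-1-5p, which only the chromosome 14 locus gives, had 326, 344, 417, 365 and 263 CPM at DIV1 and 39.1, 67.1, 73.6, 77.5 and 83.8 CPM at DIV5 (-2.32, adjusted p = 2.84e-08). The single arm of the 23 that was not called was the rare miR-19a-5p, with 7.41 and 6.45 CPM.

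miR-92b-3p, of neural progenitors, has the seed of miR-92a-3p and comes from a hairpin of its own on chromosome 3 (89227116 to 89227198, minus strand), outside annotated host genes. It had 67635, 56530.4, 56300.1, 51864 and 46903 CPM at DIV1 and 12624, 20813, 18822, 21154 and 16211 CPM at DIV5. All DIV5 libraries were lower than all DIV1 libraries, by 3.12-fold in the mean (log2 change -1.64, SE 0.14, adjusted p = 1.18e-08). Summed over the 5 tested arms with the seed AUUGCAC, the share of all counts was 13.6%, 12.3%, 10.6%, 10.4% and 9.26% in the DIV1 libraries and 2.69%, 3.50%, 3.73%, 3.53% and 3.01% in the DIV5 libraries. In this family miR-92a-3p, miR-92b-3p, miR-25-3p and miR-363-3p fell, whereas miR-32-5p rose from 20.5 to 33.9 CPM (0.74, adjusted p = 0.000965).

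All 6 tested arms with the seed AAAGUGC were called lower, with a median of -1.19 (5 of 6 without libraries 1 and 5). The seed AGUGCAA of miR-130 and miR-301 had 3 of 3 arms called lower, with a median of -0.64, beside 29.3% of all tested arms. Embryonic stem cell miRNAs of the miR-302 cluster were present at a low level. miR-302b-3p had 22.9, 20.2, 29.4, 13.1 and 20.1 CPM at DIV1 and 3.3, 5.92, 7.52, 13.0 and 9.17 CPM at DIV5, with the DIV5 values all under those of DIV1 by a narrow margin (-1.38, adjusted p = 0.000608).

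**Figure D2:**
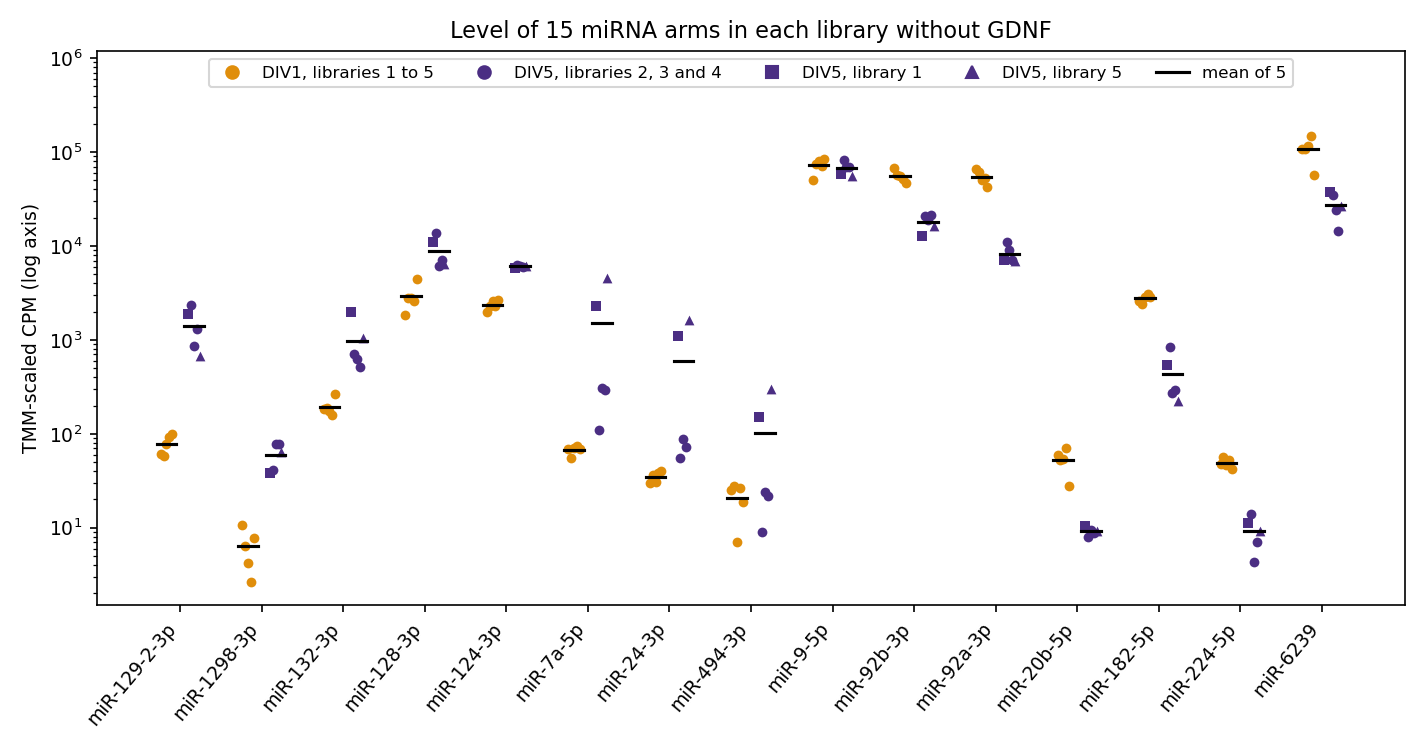
TMM-scaled CPM (log axis) of 15 named arms in each of the 10 libraries without GDNF. Orange circles are DIV1 libraries, purple marks DIV5 libraries (square for library 1, triangle for library 5), and bars the mean of 5. The days are apart in the same way in every library for miR-124-3p or miR-92a-3p, whereas miR-7a-5p, miR-24-3p and miR-494-3p are far higher in DIV5 libraries 1 and 5 than in libraries 2, 3 and 4.

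The neuron-enriched list, drawn from miR-124, miR-128, miR-129, miR-137, miR-138, miR-153, miR-218, miR-383 and miR-488, leaned upward. Of its 18 tested arms 11 were called higher and 5 lower, with a median of 0.82 (9 higher, 3 lower and 0.71 without libraries 1 and 5). The background of higher calls was 31.4%. The list made up 1.07% ± 0.14 of the counts at DIV1 and 2.86% ± 0.17 at DIV5 (SD, n = 5 each). miR-124-3p, the best known miRNA of differentiated neurons, had 1972, 2276, 2604, 2295 and 2647 CPM at DIV1 and 5826, 6221, 6187, 5969 and 6118 CPM at DIV5. The days did not overlap, and the 5 DIV5 values lay close together (2.57-fold; log2 change 1.36, SE 0.11, adjusted p = 4.92e-09).

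Without libraries 1 and 5, miR-129-2-3p had the largest increase among arms of at least 10 CPM. It is the 3p arm of 1 of 2 miR-129 hairpins, which are known from synaptic scaling. It had 60.6, 58.6, 76.9, 92.9 and 101 CPM at DIV1 and 1872, 2339.8, 859, 1298 and 673 CPM at DIV5. All DIV5 values exceeded all DIV1 values, by 18.1-fold in the mean (log2 change 4.19, SE 0.34, adjusted p = 1.18e-08). The change was 4.29 without libraries 1 and 5. Its hairpin Mir129-2 lies on chromosome 2 at 94241364 to 94241453 on the minus strand, within the noncoding host Mir670hg. The matching arm of the other hairpin, miR-129-1-3p, rose by less, from 10.9 to 28.1 CPM (1.33, adjusted p = 0.000406). The difference between these arms was not tested.

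miR-128-3p, made in introns of R3hdm1 and Arpp21, had 1844, 2777, 2777, 2598 and 4498 CPM at DIV1 and 10983, 13586, 6188, 7039 and 6407 CPM at DIV5. DIV5 libraries 1 and 2 were the highest, but all 5 lay above DIV1 (log2 change 1.61, SE 0.27, adjusted p = 4.74e-05). miR-153-3p, from an intron of Ptprn2, rose from 2146 ± 260.0 to 3517 ± 466 CPM (0.71, adjusted p = 3.21e-05). miR-383-5p rose from 211 to 590.0 CPM (1.49, adjusted p = 2.35e-07). miR-137-3p, which acts in neuronal maturation, had 68.1, 56.8, 48.9, 69.4 and 69.7 CPM at DIV1 and 751, 122, 263, 227 and 1719 CPM at DIV5. Every DIV5 library was above DIV1, but libraries 1 and 5 were far above the others, so the change of 3.30 became 1.74 without them (adjusted p = 3.4e-06). The 5 arms of the list that fell were miR-124-5p, miR-128-1-5p, miR-138-1-3p, miR-153-5p and miR-488-5p, and the calls of miR-128-1-5p and miR-138-1-3p were lost without libraries 1 and 5. Each of them, apart from miR-138-1-3p, is the less abundant arm of a hairpin whose other arm rose.

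Among the miRNAs linked to dopaminergic neurons, 5 of 12 tested arms rose and 1 fell, miR-126a-3p, which is also the endothelial marker given below. Of all tested arms 31.4% rose and 29.3% fell, and the counts were also 5 and 1 without libraries 1 and 5. miR-218-5p, made in introns of the axon guidance genes Slit2 and Slit3, had 1168, 933, 1206, 1204 and 1208 CPM at DIV1 and 1808, 1216, 2007, 2162 and 3745 CPM at DIV5. All DIV5 values were above those of DIV1, library 2 barely and library 5 most (0.94, adjusted p = 0.0016; 0.68, adjusted p = 0.00779 without libraries 1 and 5). miR-34b and miR-34c arms were not called, and miR-34c-5p had 389.8 and 392 CPM. miR-7a-5p and miR-7b-5p, miRNAs that target alpha-synuclein, are described with libraries 1 and 5 below.

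Activity-regulated miRNAs rose with few exceptions: 10 of 13 tested arms were called higher and 0 lower, beside 31.4% and 29.3% of all tested arms, with a median of 1.21 (9 of 12 and 1.03 without libraries 1 and 5). The 4 arms of the Mir212 to Mir132 locus on chromosome 11 (75173388 to 75173747, plus strand) all rose in both fits. miR-132-3p had 185, 188, 175, 157 and 266 CPM at DIV1 and 1988, 704, 624, 517 and 1058 CPM at DIV5. Its lowest DIV5 value exceeded its highest DIV1 value, and DIV5 libraries 1 and 5 were again the highest (log2 change 2.34, SE 0.31, adjusted p = 2.3e-06; 1.68, adjusted p = 1.15e-06 without them). miR-212-3p, with the same seed, rose from 52.3 ± 18.6 to 123 ± 19.9 CPM (1.25, adjusted p = 0.000333; 1.30 without them).

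miR-146b-5p, an NF-kappaB responsive miRNA placed in the same list, had 398, 516, 569, 497 and 582 CPM at DIV1 and 3909.8, 1317, 1669, 1467 and 4970.4 CPM at DIV5. Libraries 1 and 5 lay well above the rest, and the change of 2.38 was 1.56 without them, called in both fits. miR-146a-5p, its relative, was called with all libraries (0.99, adjusted p = 0.0425) and lost its call without them (-0.16, adjusted p = 0.664). miR-29a-3p, a miRNA of maturing neurons and glia, had 36.4, 51.3, 46.1, 37.9 and 52.7 CPM at DIV1 and 81.1, 76.0, 94.3, 101 and 85.4 CPM at DIV5 with no overlap (0.97, adjusted p = 0.000173). miR-29c-3p rose from 26.4 ± 5.4 to 61.3 ± 15.5 CPM (1.24, adjusted p = 0.000347).

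The arms made in introns of Htr2c, the gene of a serotonin receptor on chromosome X, rose together. All 4 tested arms were called higher in both fits, beside 31.4% of all tested arms (27.4% without libraries 1 and 5). The 4 had a median of 2.57, and of 2.70 without these libraries. miR-1298-3p had 10.8, 6.41, 4.19, 2.62 and 7.74 CPM at DIV1 and 38.2, 41.5, 78.1, 77.2 and 64.6 CPM at DIV5, and the days did not overlap (log2 change 3.16, SE 0.36, adjusted p = 3.11e-07). Its low DIV1 values rest on few reads, since 1 read was worth up to 1.46 CPM there. miR-448-3p rose from 29.7 ± 7.3 to 164 ± 58.1 CPM (2.45, adjusted p = 1.22e-07), and miR-1298-5p from 89.4 to 227 CPM (1.34, adjusted p = 4.48e-05). The rodent miR-344 arms within A230057D06Rik also rose in 4 of 4 cases with all libraries and in 3 of 4 without libraries 1 and 5. These groups were chosen after their values were seen.

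The miR-183 cluster, best known from sensory organs and with 2 of its members in the series title, fell in all 4 tested arms. Of all tested arms 29.3% were called lower. The median of the cluster was -2.46 (-2.94 without libraries 1 and 5). Its 3 hairpins lie on chromosome 6 at 30165918 to 30169737 on the minus strand. miR-182-5p had 2588, 2408, 2867, 3116 and 2875 CPM at DIV1 and 539, 832, 273, 291 and 223 CPM at DIV5 (6.42-fold lower; log2 change -2.69, SE 0.29, adjusted p = 2.35e-07). Within DIV5, libraries 1 and 2 were above libraries 3, 4 and 5, yet all were under DIV1. miR-183-5p had 341, 339, 394, 319 and 396 CPM at DIV1 and 166, 133, 40.0, 44.2 and 67.0 CPM at DIV5, again with libraries 1 and 2 above the rest (-2.01, adjusted p = 2.21e-05; -2.36, adjusted p = 7.96e-06 without libraries 1 and 5). The rare arms miR-96-5p and miR-183-3p fell from 12.3 to 1.77 CPM (-2.98, adjusted p = 4e-06) and from 9.01 to 2.14 CPM (-2.24, adjusted p = 0.00248), at a depth where the DIV5 values are a few reads per library. Their changes were -3.85 and -3.30 without libraries 1 and 5.

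Other large decreases were spread over unrelated loci. miR-224-5p, from an intron of the GABA receptor gene Gabre on chromosome X, had 47.8, 56.8, 46.1, 52.3 and 41.8 CPM at DIV1 and 11.3, 13.8, 4.35, 6.96 and 9.17 CPM at DIV5, and the days did not overlap (log2 change -2.50, SE 0.32, adjusted p = 1.38e-06). miR-6239, which at DIV1 had a higher CPM than miR-9-5p, had 107614, 106638, 115825, 149517 and 56595 CPM at DIV1 and 37636, 35037, 23921, 14513 and 26931 CPM at DIV5. The lowest DIV1 library, number 5, still lay above all DIV5 libraries (log2 change -1.96, SE 0.46, adjusted p = 0.00155). miR-712-5p fell from 19.1 ± 3.72 to 4.56 ± 2.43 CPM (-2.15, adjusted p = 6.24e-05).

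Abundant miRNAs of neural tissue were in part not called. miR-181a-5p, the most abundant arm of both days, had 143508, 151670.0, 169433, 174863 and 176408 CPM at DIV1 and 130119, 183453, 139821, 143657 and 124024 CPM at DIV5, overlapping ranges and no call (-0.18, adjusted p = 0.187). miR-9-5p had 50966, 74113, 81306, 70986 and 85071 CPM at DIV1 and 58800.3, 82169, 69461, 68717 and 55888 CPM at DIV5, again overlapping (-0.11, adjusted p = 0.537). These p-values do not show that the levels are equal. miR-181b-5p, with the seed of miR-181a-5p and hairpins beside it at both loci, fell from 33996 ± 2206 to 15089 ± 2627 CPM (-1.17, adjusted p = 1.93e-07). The star arms miR-181a-1-3p and miR-181a-2-3p fell as well (-0.56 and -1.19).

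The list of miRNAs of neural progenitors and neurogenesis had calls in both directions. Of its 20 tested arms 3 were higher and 7 lower, beside 31.4% and 29.3% of all tested arms, with a median of -0.16, and without libraries 1 and 5 the counts were 2 and 10 and the median -0.52. Apart from miR-92b-3p and the miR-181 arms, miR-135b-3p fell (-1.09) while miR-135a-5p, studied in the dopaminergic lineage, rose from 1108 to 1963 CPM (0.83, adjusted p = 5.47e-05).

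The let-7 family, which is known to accumulate as cells differentiate, rose only in some members. Of 20 tested let-7 and miR-98 arms 8 were higher and 2 lower, beside 31.4% and 29.3% of all tested arms, with a median of 0.39. The counts were 7 and 1 of 19 without libraries 1 and 5. let-7c-5p, its most abundant arm, had 9968, 21174, 21019, 21509 and 31323 CPM at DIV1 and 25883, 32785, 16281, 18846 and 17694 CPM at DIV5, with wide, overlapping ranges (0.09, adjusted p = 0.801). let-7f-5p had 7056, 10089.8, 8106, 10577 and 13318 CPM at DIV1 and 14626, 20632, 11229, 11253 and 9857 CPM at DIV5 and missed the threshold with all libraries (0.46, adjusted p = 0.0536) but passed it without libraries 1 and 5 (0.56, adjusted p = 0.0391). let-7g-5p rose from 2373 ± 574 to 4154 ± 658 CPM (0.81, adjusted p = 0.000145), and let-7e-5p fell from 4115 to 2786 CPM (-0.56, adjusted p = 0.0205). The call of let-7e-5p was lost without libraries 1 and 5 (-0.52, adjusted p = 0.0638), and so was the higher call of let-7b-5p (1.57, adjusted p = 0.00527 before, 1.16, adjusted p = 0.059 after).

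miR-125b-5p, which shares a transcript with let-7 and miR-100 or miR-99a genes, had 18441, 19295, 22695, 16273 and 25269 CPM at DIV1 and 26611, 48301, 22824, 37802 and 25659.6 CPM at DIV5. The ranges overlapped, with DIV5 libraries 2 and 4 highest (0.66, adjusted p = 0.00696). miR-99b-5p was not called (-0.35, adjusted p = 0.231), nor was miR-100-5p (-0.60, adjusted p = 0.0736). miR-30a-5p, miR-30e-5p and miR-26a-5p were not called, with changes of 0.06, -0.07 and 0.01. Of 11 tested miR-30 arms 2 were called higher and 4 lower, beside 31.4% and 29.3% of all tested arms. The higher arms were miR-30b-5p (1.02, adjusted p = 0.000135) and miR-30d-5p (0.29, adjusted p = 0.00291). The lower arms were miR-30a-3p, miR-30e-3p, miR-30c-1-3p and miR-30c-2-3p (-0.53, -0.43, -0.89 and -0.97). Without libraries 1 and 5 the counts were 2 and 2.

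**Figure D3:**
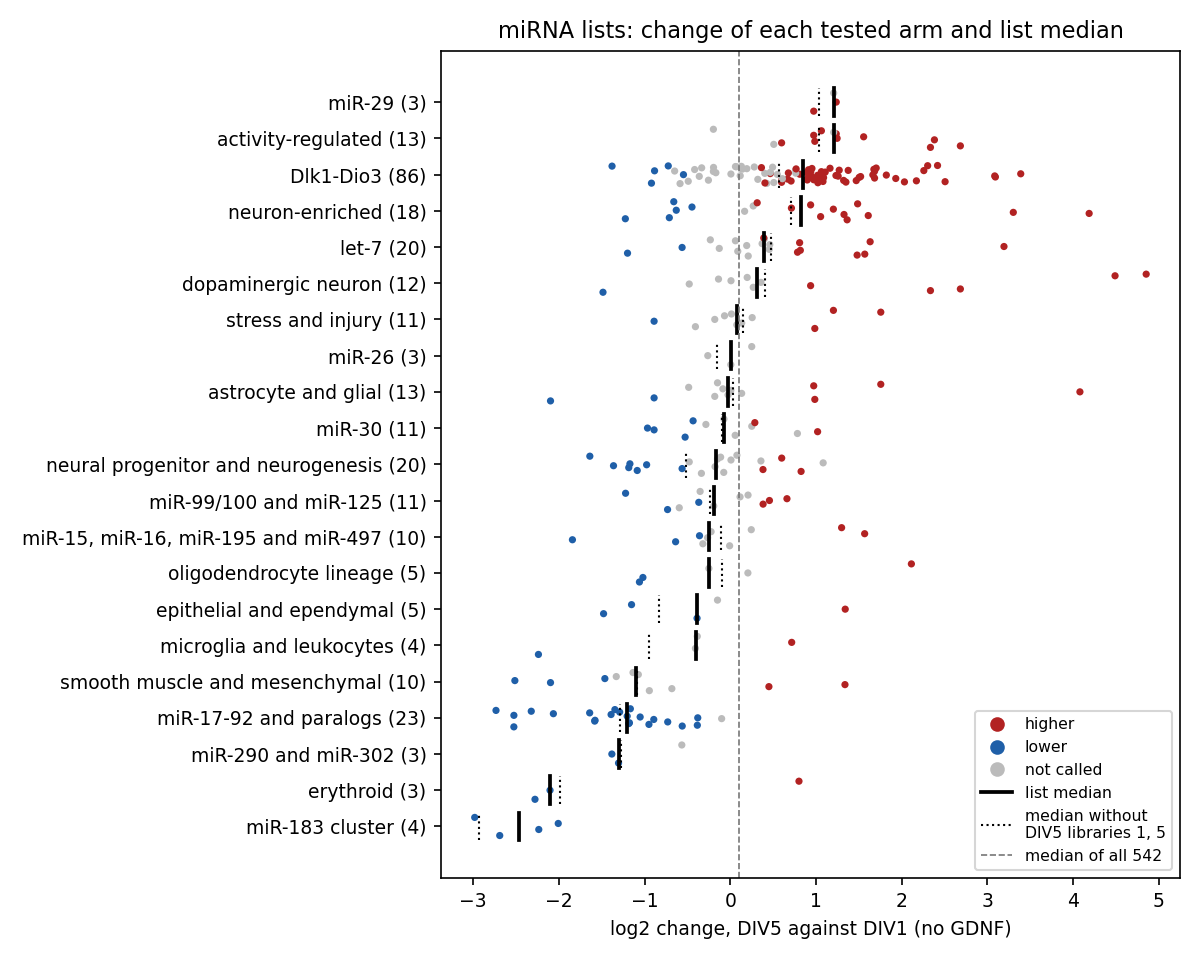
Log2 change of every tested arm in each list with 2 or more of them (number of arms in parentheses), coloured by its call in the edgeR fit. Black bars are list medians, dotted bars the medians without DIV5 libraries 1 and 5, and the dashed line the median of all 542 arms (0.10). The miR-17-92 and miR-183 lists lie left of the dashed line, with medians of -1.20 and -2.46, and the activity-regulated, neuron-enriched and Dlk1-Dio3 lists right of it, with medians of 1.21, 0.82 and 0.85.

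The imprinted Dlk1-Dio3 region on chromosome 12 carries the largest set of miRNAs in the mouse genome, expressed from the maternal allele and abundant in brain. Of its 86 tested arms 53 were called higher and 5 lower, beside 31.4% and 29.3% of all tested arms, with a median of 0.85. Without libraries 1 and 5 the counts were 42 and 5 of 85 arms and the median 0.57. The share of the region in all counts went from 7.32% ± 1.2 to 14.0% ± 2.8 (SD, n = 5 each). Its most abundant arm, miR-127-3p, had 32197, 25783, 26367, 22806 and 25394 CPM at DIV1 and 28118, 30988, 40691, 40703 and 34842 CPM at DIV5, a small change with overlapping ranges (0.40, adjusted p = 0.0117). miR-434-3p, beside it, rose from 9246 ± 1856 to 19920.2 ± 2779.6 CPM (1.11, adjusted p = 7.36e-07), and miR-410-3p from 5903 ± 1082 to 10346 ± 3322 CPM (0.81, adjusted p = 0.000599).

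Within the region, the arms from Mir770 to Mir136 and those from Mir379 to Mir3072 differed in how much they rested on libraries 1 and 5. The first group had 12 of 20 arms higher with all libraries and 13 of 20 without, beside 31.4% and 27.4% of all tested arms. The second had 31 of 52 arms higher with all libraries and 20 of 51 without, and 11 of its arms were at least 2-fold above the mean of libraries 2, 3 and 4 in both library 1 and library 5. miR-541-5p of the second group is not among these 11. It had 22909, 10945, 14273, 14350.3 and 30385 CPM at DIV5, with libraries 1 and 5 highest. Its call (0.77, adjusted p = 0.00317) was lost without them (0.30, adjusted p = 0.0898). The 5 arms of the region that fell, each in both fits, were miR-409-3p, miR-493-5p, miR-679-5p, miR-758-3p and miR-1197-3p.

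Leaving out DIV5 libraries 1 and 5 mattered most for 43 tested arms that were at least 2-fold above the mean of libraries 2, 3 and 4 in both of them. These arms were chosen by their values, so what follows is a description. With all libraries 30 of them were called higher and 1 lower, beside 31.4% and 29.3% of all tested arms, and their median change was 1.51. Without libraries 1 and 5, 4 were not tested. Of the 39 tested, 15 were called higher and 7 lower, beside 27.4% and 26.4% of all tested arms, and their median was 0.28. Only 3 tested arms were at most 0.5 times that mean in both libraries (miR-471-5p, miR-493-3p and miR-7043-3p), so the departure was nearly always upward.

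The largest such departures included miR-7a-5p, which had 68.7, 55.0, 71.3, 73.3 and 68.1 CPM at DIV1 and 2289, 111, 304, 295 and 4537 CPM at DIV5. Libraries 1 and 5 held 9.67 and 19.2 times the mean of the others, which were themselves above DIV1. Its change of 4.49 (adjusted p = 0.000126) was 1.86 without them (adjusted p = 0.000158). miR-7b-5p had 12.1, 5.5, 8.39, 9.16 and 9.29 CPM at DIV1 and 373, 28.6, 82.1, 83.6 and 734 CPM at DIV5, and its change went from 4.85 to 2.89. Both arms thus rose in either fit, by 1.83 or more on the log2 scale in every alternative run, but the size of the rise depends on these libraries.

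miR-24-3p, a widely expressed miRNA, had 29.6, 36.6, 30.8, 37.9 and 40.3 CPM at DIV1 and 1107, 55.3, 88.0, 73.0 and 1623 CPM at DIV5, and its change went from 4.08 to 1.08, still called (adjusted p = 0.00184). miR-411-3p and miR-379-5p of the Dlk1-Dio3 region went from 3.39 to 1.29 and from 3.09 to 1.25, both called in either fit.

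For miR-494-3p, miR-185-5p and miR-425-3p the call itself rested on these libraries. miR-494-3p had 24.9, 27.5, 6.99, 26.2 and 18.6 CPM at DIV1 and 149, 8.89, 23.7, 21.5 and 300.2 CPM at DIV5. In libraries 2, 3 and 4 it lay within its DIV1 range, and its change went from 2.26, adjusted p = 0.00898 to -0.14, adjusted p = 0.754. miR-185-5p had 23.6, 12.8, 25.2, 34.0 and 37.2 CPM at DIV1 and 186, 23.7, 31.3, 28.8 and 263 CPM at DIV5, and its change went from 2.04, adjusted p = 0.00436 to 0.15, adjusted p = 0.683. miR-425-3p had 13.5, 8.25, 9.78, 14.4 and 10.8 CPM at DIV1 and 71.2, 13.8, 12.7, 10.3 and 74.9 CPM at DIV5, and its change went from 1.69, adjusted p = 0.00695 to 0.10, adjusted p = 0.778. In the opposite sense, miR-302d-3p, not called with all libraries (-0.57, adjusted p = 0.338), was lower without them (-1.39, adjusted p = 0.0227).

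**Figure D4:**
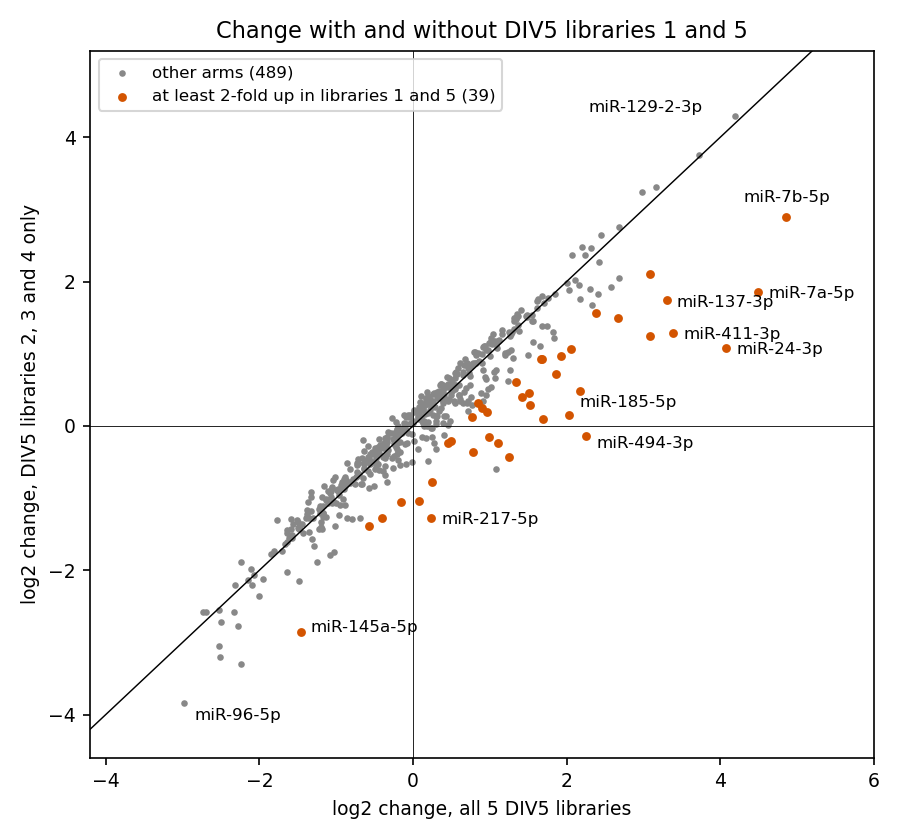
Log2 change with all 5 DIV5 libraries (horizontal axis) against the change with libraries 2, 3 and 4 alone (vertical axis) for the 528 arms tested in both fits; the line marks equal values. Orange points are arms at least 2-fold above the mean of libraries 2, 3 and 4 in both library 1 and library 5, and they lie under the line by construction. Grey arms such as miR-129-2-3p (4.19 and 4.29) lie near it.

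These departures seldom reached the other arm of the hairpin. Of the 43 arms, 26 had a tested arm on the other side of the same hairpin in the RefSeq table, in 27 pairs. In 0 of the 27 was the other arm also at least 2-fold up in both libraries, beside 43 of all 542 tested arms. The other arms stood at a median of 1.01 times the mean of libraries 2, 3 and 4 in library 1 (range 0.556 to 1.98) and of 1.12 times in library 5 (range 0.523 to 3.35). Some other arms were up in both libraries without passing the cut in both. In libraries 1 and 5 miR-344f-5p stood at 1.98 and 3.35, miR-379-3p at 1.86 and 2.23, and miR-382-3p at 1.65 and 2.64. For miR-24-3p the ratios were 15.4 and 22.5, and for miR-24-2-5p they were 0.565 and 1.06. For miR-7a-5p the other arms, miR-7a-1-3p and miR-7a-2-3p, stood at 0.952 and 1.01 in library 1 and at 0.991 and 1.16 in library 5. The arms raised had a median GC content of 47.6%, and all tested arms with a sequence 47.8%. What sets libraries 1 and 5 apart was not tested.

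**Figure D5:**
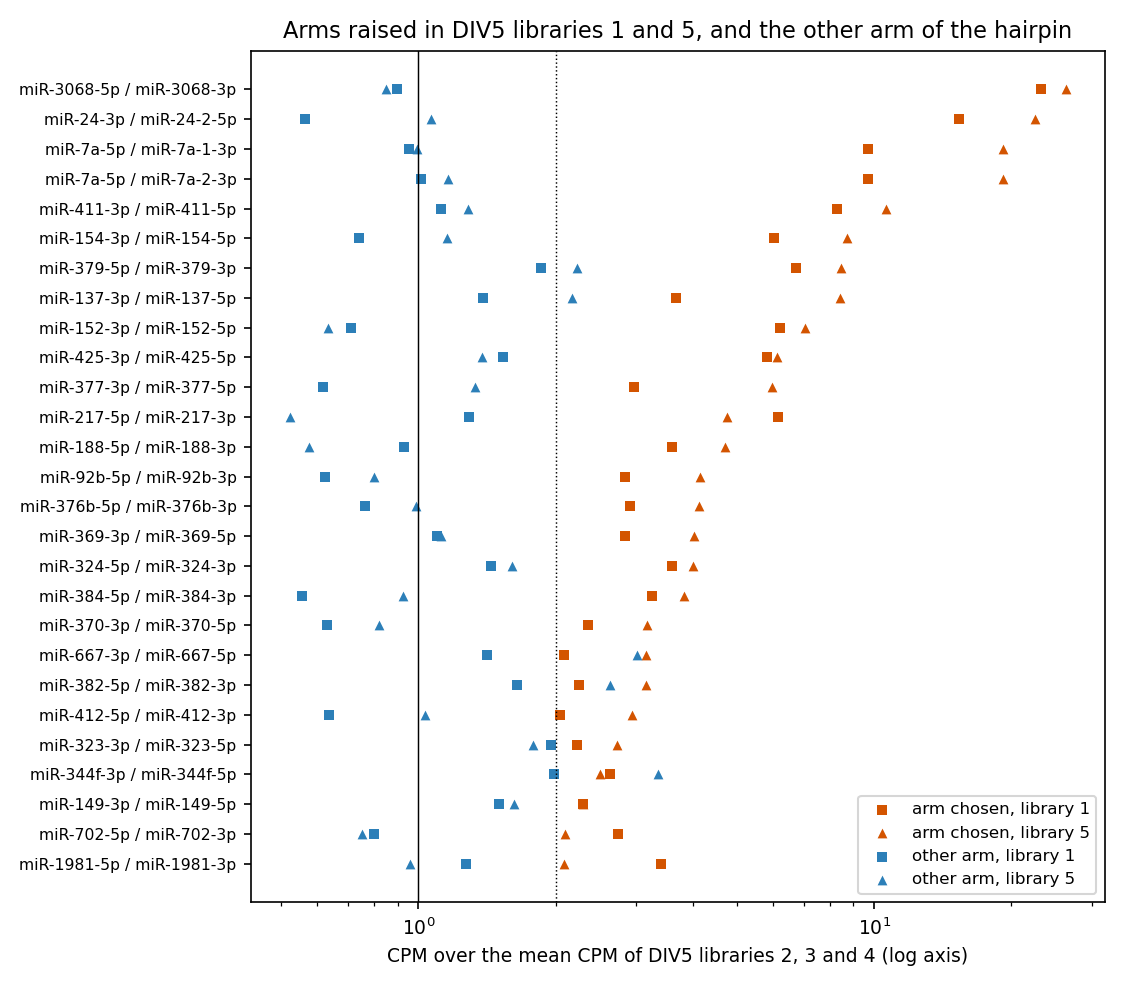
For each arm at least 2-fold up in both DIV5 library 1 (squares) and library 5 (triangles) that has a tested partner, its CPM over the mean CPM of libraries 2, 3 and 4 (orange) and the same ratio for the other arm of the hairpin (blue), on a log axis. Solid and dotted lines mark ratios of 1 and 2. The chosen arms lie right of the dotted line by construction, up to 26.3 for miR-3068-5p, while no other arm passes it in both libraries.

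Arms of a hairpin parted between the days in some pairs, although most pairs changed with the same sign. The RefSeq annotation gave 142 arm pairs of which both were tested. Of all tested arms 31.4% were called higher and 29.3% lower. Of the 142 pairs, 24 had both arms higher, 20 both lower, 70 only 1 arm called and 22 neither. In 101 pairs the changes had the same sign. In 6 of these pairs the arms were called in opposite directions: miR-128-1-5p fell while miR-128-3p rose, miR-125b-1-3p fell while miR-125b-5p rose, and the arms of miR-153, miR-296, miR-488 and miR-1251 parted as well. Arms without a RefSeq match are in none of the 142. The opposite calls of miR-124-5p and miR-124-3p are therefore not counted, since miR-124-3p had no match. miR-153-5p had 201, 235, 207, 230.3 and 228 CPM at DIV1 and 182, 149, 158, 121 and 195 CPM at DIV5 (-0.45, adjusted p = 0.00956), opposite to its abundant 3p arm. miR-296-5p rose from 109 ± 10.5 to 160.1 ± 24.5 CPM (0.55, adjusted p = 0.000824) and miR-296-3p fell from 484 ± 54.1 to 281 ± 121 CPM (-0.79, adjusted p = 0.00664). miR-128-3p and miR-125b-5p have a second hairpin each, so their reads cannot be assigned to 1 hairpin. Without libraries 1 and 5 the lower calls of miR-128-1-5p (-0.46, adjusted p = 0.0752), miR-125b-1-3p (-0.24, adjusted p = 0.117) and miR-1251-3p (-0.98, adjusted p = 0.155) were lost, and the opposite calls of the miR-153, miR-296 and miR-488 arms were made again.

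Markers of other cell types were followed through the same days. The cultures are labelled as neurons, and the summed level of the neuron-enriched list was 9638 to 13733 CPM at DIV1 and 23338 to 30540 CPM at DIV5. Sums here take every listed arm, tested or not. Of 10 listed microglial and leukocyte arms 4 were tested, with a summed level of 1359.6 to 1694 CPM at DIV1 and 1587 to 3282 CPM at DIV5, ranges that overlapped. Most of this was miR-342-3p, which neurons may also hold and which was called higher (0.72, adjusted p = 0.00141). Of the 4 tested, 1 was called higher and 1 lower, beside 31.4% and 29.3% of all tested arms. Without libraries 1 and 5 the counts were 1 and 3, beside 27.4% and 26.4%. The leukocyte-restricted miR-142a-5p had 95.7, 57.7, 85.3, 57.6 and 55.8 CPM at DIV1 and 12.7, 39.5, 8.31, 15.1 and 5.9 CPM at DIV5 and fell (-2.24, adjusted p = 0.000126).

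Of the erythroid arms, miR-451a and miR-144-5p were low and fell, miR-451a from 36.6 ± 14.6 to 9.41 ± 5.45 CPM (-2.10, adjusted p = 0.000837) with ranges that overlapped. miR-486 (the a and b copies are counted on 1 line) rose from 2545 ± 356 to 4434 ± 942 CPM (0.80, adjusted p = 0.000142). Endothelial miR-126a-3p, the single tested arm of 4 listed, had 148, 49.5, 75.5, 70.7 and 125 CPM at DIV1 and 63.6, 26.7, 18.8, 18.5 and 40.4 CPM at DIV5 (-1.49, adjusted p = 0.000831; -2.16, adjusted p = 1.89e-05 without libraries 1 and 5). Smooth muscle and mesenchymal arms, 10 tested of 23 listed, summed to 4175 to 6602 CPM at DIV1 and 2171 to 3609.6 CPM at DIV5, with no overlap, and 6 of the 23 had 0 reads in the 10 libraries. At DIV1 most of it was miR-143-3p, while at DIV5 miR-140-3p was the most abundant (1284 and 1754 CPM on the 2 days). Of the 10 tested, 2 were called higher and 3 lower, beside 31.4% and 29.3% of all tested arms. The higher arms were miR-140-3p (0.45, adjusted p = 0.0112) and miR-140-5p (1.34). Without libraries 1 and 5 the counts were 1 and 3, and miR-140-3p lost its call. miR-143-3p had 3767, 3343, 2705, 2879 and 3685 CPM at DIV1 and 1306, 1087, 531, 510.5 and 399 CPM at DIV5, with no overlap between the days and the highest DIV5 values in libraries 1 and 2 (-2.10, adjusted p = 0.00079).

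Oligodendrocyte lineage arms, 5 tested of 13 listed, summed to 889 to 1061 CPM at DIV1 and 470.2 to 658 CPM at DIV5, with no overlap. miR-219a-2-3p had 617, 548, 561, 657 and 485 CPM at DIV1 and 348, 241, 208, 204 and 411 CPM at DIV5 and fell (-1.02, adjusted p = 0.000142), while miR-338-5p rose at a low level, from 3.36 to 16.2 CPM (2.11, adjusted p = 1.76e-05). Astrocyte and glial arms, which neural cells share, summed to 39071 to 47289 CPM at DIV1 and 36312 to 46806 CPM at DIV5, ranges that overlapped. Of 13 tested, 4 were higher and 2 lower, beside 31.4% and 29.3% of all tested arms (3 and 2 without libraries 1 and 5). miR-21a-5p, a glial and injury miRNA, had 2996 ± 298 and 2641 ± 279 CPM and was not called (-0.18, adjusted p = 0.104). miR-204-5p, of choroid plexus and pigment epithelium and made in Trpm3, had 615, 596, 689, 591 and 748 CPM at DIV1 and 1574, 2356, 1545, 1507 and 1223 CPM at DIV5, all above DIV1 (1.34, adjusted p = 5.95e-07). Epithelial and ependymal arms other than miR-204-5p were low in level, and 5 of 23 listed were tested. Of these 5, miR-204-5p was the 1 called higher and 3 were called lower, with a median of -0.39. Without libraries 1 and 5 the counts were 1 and 2 and the median -0.84. miR-203-3p fell (-0.39, adjusted p = 0.0474) and lost its call without them. The part that these cells have in any change above was not tested.

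The same days were compared in the 10 libraries with GDNF. They share no library with the 10 without. Deviations of libraries of the same number and day were positively correlated (0.022 to 0.508 at DIV1 and 0.207 to 0.532 at DIV5). Many pairs of different number were negative, but some were higher than the pair of the same number. DIV1 control 2 had 0.287 with GDNF 4 and 0.022 with GDNF 2. DIV5 control 1 had 0.326 with GDNF 2 and 0.207 with GDNF 1. The comparisons are not taken as independent. With GDNF 284 of 542 arms were called (52.4%), 136 higher (25.1%) and 148 lower (27.3%). Of the 170 arms called higher without GDNF, 117 were called higher with it, and of the 159 called lower, 128 were called lower. No arm was called in opposite directions. Across the 542 arms the 2 sets of changes had the same sign in 86.5% and a Pearson correlation of 0.86, and of 0.94 with DIV5 control libraries 1 and 5 left out. This correlation is over miRNAs, which are not independent replicates.

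Among the arms raised in libraries 1 and 5, 8 of 43 were called higher with GDNF and 4 lower, beside 25.1% and 27.3% of all tested arms. The raised arms had a median change of 0.24 with GDNF, and all tested arms 0.0017. The difference between the day effects was called for 0 of 542 arms by edgeR (0%; 50 had an unadjusted p under 0.05, 9.23%) and for 0 by DESeq2 (50 unadjusted). The arms with its 5 smallest unadjusted p-values, miR-7a-5p and miR-24-3p among them, were all raised in DIV5 control libraries 1 and 5. For miR-7a-5p the change was 1.23 with GDNF and 4.49 without, a difference of 3.26 (unadjusted p = 0.00511). Without libraries 1 and 5, 16 of 530 arms (3.02%) had an unadjusted p under 0.05 for this difference and 0 were called by edgeR. miR-129-2-3p (3.85), miR-124-3p (1.31), miR-1298-3p (2.99), miR-92a-3p (-2.41) and miR-92b-3p (-1.55) were called in the same direction with GDNF as without. miR-182-5p fell with GDNF too (-1.59, adjusted p = 8.51e-05).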

How the data were processed

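Small RNA was sequenced from 10 untreated cultures (5 at DIV1, 5 at DIV5) and 10 given GDNF. As their values show, the authors deposited a whole-number count of reads for each mature miRNA, without scaling. These were made with cutadapt 1.8.1, STAR 2.4.1d and HTSeq (version not given in the sources used here) on mm10, per the submitters' processing notes. The 1886 miRNA lines of each file were used, and its last 5 lines, which count unassigned reads, entered no library size or test.

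The test was that of edgeR 4.0.16 (R 4.3.3): filterByExpr (minimum count 10), TMM factors, and 1 quasi-likelihood fit (glmQLFit, glmQLFTest) over all 20 libraries with robust dispersion and 1 coefficient per group. Tests were two-sided, with Benjamini-Hochberg adjustment over all 542 tested miRNAs and a threshold of 0.05. SEs are the log2 change over the square root of F. Alternatives were DESeq2 1.42.0, voom of limma 3.58.1, other scaling factors and filters, fewer libraries and a block for the replicate number. The fit was tested on simulated data. Counts cover sampling error only within the reads, which carry no molecular identifiers. A count of 0 allows up to 3 reads, 0.694 to 4.37 CPM in the 10 libraries.

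The members, lists and naming rule were chosen with earlier results of these data known. Named miRNAs are the 12 largest increases and 12 largest decreases among those of at least 10 CPM called with and without DIV5 control libraries 1 and 5, the 6 that moved most between these fits, the 2 most abundant arms of each list, the 5 most abundant arms, the 5 smallest p-values for the difference between day effects, up to 5 hairpins with opposite calls, and the miR-183 cluster. Other names are examples chosen after their values were seen. Hairpin positions and mature sequences are from RefSeq on GRCm38.p6 (478 of the 542 arms matched), host genes from GENCODE vM21. An arm made by several hairpins cannot be assigned to 1 of them. Replicate libraries differed beyond counting noise (chi-square per degree of freedom of 10.3 or more).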

Additional observations from a re-analysis of the deposited data

Results flagged for a closer look

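In each named miRNA the 5 libraries of each day were examined for a single value whose gap to the next exceeded 0.71 of the group's range. Among 150 such groups (75 miRNAs, 2 days), 6 had one. Chance gives about 1 in 20. At DIV1, library 2 was low for miR-7a-5p (55.0 CPM, the next at 68.1) and for miR-218-5p (933 CPM, the next at 1168), and library 5 was high for miR-132-3p (266 CPM, the next at 188). At DIV5, library 2 was high for miR-142a-5p (39.5 CPM, the next at 15.1) and for miR-26a-5p (31755 CPM, the next at 26296), and library 5 was high for miR-455-3p (73.8 CPM, the next at 25.4). DIV5 library 1 was in none of the 6. The pattern of libraries 1 and 5 raised together is not seen by this measure, since 2 raised values hide each other.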

How the results depend on the processing

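Over the 25 alternatives, the higher calls were 127 to 208 and the lower calls 105 to 166, beside 170 and 159. The count of lower calls moved by more than 1.5 times in 1 of them: with DIV5 libraries 1 and 2 alone it was 105. Leaving out 1 library at a time gave 158 to 178 higher and 139 to 166 lower calls. Without the filter on low counts 208 and 130 of 1581 were called, and DESeq2 called 177 and 159. When only the 10 untreated libraries were filtered, scaled and fitted, 144 and 142 of 487 were called. With a replicate block the calls were 163 higher and 160 lower, 151 and 151 with libraries 1 and 5 also left out, and 127 and 119 in the 10 libraries alone. With GDNF the replicate block gave 141 higher and 152 lower calls, and 0 for the difference between day effects (53 at an unadjusted p under 0.05). Libraries of the same number on the 2 days did not deviate together (correlations of -0.112, 0.015, -0.0049, -0.074 and -0.091). These deviations thus show no pairing by number across the days. They cannot show whether such libraries share a dissection or culture, which the labels do not say. Of the 60 named miRNAs that were called, 40 were called in every alternative and 20 lost the call in 1 or more.

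Of those called, 1 changed sign: miR-494-3p had -0.14 without libraries 1 and 5 and, with these also left out, -0.11 with a replicate block and -0.10 in the untreated libraries alone. The other 12 that changed sign had not been called. Without the filter, miR-181a-5p had 0.028, miR-9-5p 0.10, miR-30e-5p 0.14, miR-27b-3p 0.12 and miR-21a-5p 0.030. Without libraries 1 and 5, miR-9-5p had 0.038, miR-30e-5p 0.022, miR-26b-5p -0.15 and miR-27b-3p 0.13. With a replicate block as well, miR-30e-5p had 0.027, miR-26b-5p -0.18, miR-27b-3p 0.14 and miR-210-3p -0.044. Without these libraries in the fit of untreated libraries alone, miR-9-5p had 0.062, miR-30e-5p 0.049, miR-26b-5p -0.13 and miR-27b-3p 0.15. With DIV5 libraries 3, 4 and 5 alone, let-7c-5p had -0.22, miR-30e-5p 0.014 and miR-26a-5p -0.037. With libraries 1 and 2 alone, miR-30a-5p had -0.11, miR-322-5p -0.48, miR-342-5p 0.15 and miR-210-3p -0.64. miR-26a-5p had -0.059 with upper-quartile factors, and miR-210-3p -0.022 with a replicate block. Leaving out 1 library at a time gave -0.073 to 0.31 for let-7c-5p, -0.092 to 0.0032 for miR-30e-5p, -0.039 to 0.085 for miR-26a-5p, -0.17 to 0.019 for miR-27b-3p and -0.044 to 0.27 for miR-210-3p. The cause of these changes was not tested. Depth limits arms near 3 reads, 0.694 to 4.37 CPM.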

Other observations

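The seed AGCAGCA, shared by miR-15, miR-16, miR-195, miR-322 and miR-497, had arms called in opposite directions. miR-195a-5p rose from 26.0 ± 6.15 to 75.4 ± 23.7 CPM (1.57, adjusted p = 2.12e-05) and miR-497a-5p, from the same cluster, from 43.5 ± 5.85 to 106 ± 40.3 CPM (1.30, adjusted p = 5.25e-05). miR-16-5p, far more abundant, fell from 14321 ± 1137 to 11160.2 ± 2346 CPM (-0.36, adjusted p = 0.0151), and miR-15b-5p from 436 ± 60.1 to 280.1 ± 23.4 CPM (-0.64, adjusted p = 0.000601). The calls of these 4 arms were made again without DIV5 libraries 1 and 5.

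Among 11 tested arms linked to stress and injury, 3 were called higher and 1 lower, beside 31.4% and 29.3% of all tested arms, with a median of 0.08 beside 0.10. Without DIV5 libraries 1 and 5 the counts were 2 and 1, and the lower arm was another, miR-155-5p in place of miR-21a-3p. miR-31-5p rose from 24.0 ± 8.57 to 80.1 ± 7.29 CPM (1.76, adjusted p = 6.53e-07), and miR-34a-5p, a p53 target, from 15.9 ± 1.79 to 37.4 ± 12.8 CPM (1.20, adjusted p = 0.0022). The hypoxia-induced miR-210-3p had 255 ± 37.2 and 268 ± 100.2 CPM and was not called. Of the arms raised in DIV5 libraries 1 and 5 that have a sequence, 20 of 37 began with U (54.1%), beside 176 of 441 others (39.9%), a description with no test.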
